A study of Homo sapiens with 6 samples.

Results

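Genes of synaptic vesicles and of SNARE-driven exocytosis were examined in NCI-H446 cells, a human line from small cell lung cancer, as the labels name them, after treatment with an unnamed chemotherapy drug. The members were all genes whose symbol on the array annotation begins with SYT, STX, STXBP, VAMP, SNAP, RIMS or CPLX and a digit, together with SV2A, SV2B, SV2C, SYN1, SYN2, SYN3, SYP, SYNGR1, SYNGR3, NSF, UNC13A, UNC13B and BSN. They came to 71 of the 18336 measured genes and to 101 of the 31741 probes. SYNGR2 was not analysed here. The 3 control flasks (control 2, 5 and 6) received 15 µl of DMSO, a drug solvent, and the 3 drug flasks (drug 1, 3 and 4) the drug, whose name, dose and exposure time the labels leave out. All 6 flasks are of the same line, were treated when most of the flask was covered, and were each read on a single-colour Phalanx OneArray microarray.

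Secretory vesicles fuse with the plasma membrane when SNARE proteins on the vesicle (VAMPs) and on the target membrane (syntaxins and SNAP-25 relatives) zip into a bundle. Sec1/Munc18 proteins (STXBP2 and STXBP3 among them) and Munc13 proteins (UNC13 genes) template and prime that bundle, complexins clamp it, synaptotagmins couple it to calcium, and the ATPase NSF takes it apart for reuse. Neurons and neuroendocrine cells use a dedicated set of these proteins, and synaptophysin (SYP) is a standard diagnostic marker of small cell lung cancer. Other paralogues serve traffic between the Golgi, endosomes, lysosomes and plasma membrane in every cell.

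Levels below are log2(intensity + 1) after quantile normalization between arrays, a change is the drug mean minus the control mean on that scale, and a gene was called changed at a limma adjusted p below 0.05. Where a gene has several probes, its brightest was used. The median within-group standard deviation (SD) was 0.17 over the members and 0.196 over all probes. A group mean under 6.86, the lower quartile of all probes, is called dim. The arrays had median intensities from 376 to 476. Of 11 neuroendocrine markers, 10 were measured, and 3 of them (CHGB, GRP and NEUROD1, at control means of 6.67, 6.74 and 5.12) were dim in the control flasks. With the drug 4 of the 10 rose (NCAM1, ENO2, SYP and CHGB), of which SYP is also a member. CHGA, INSM1, DLL3, GRP and NEUROD1 did not pass, at 0.066, 0.35, 0.067, 0.016 and -0.46. The summed deposited intensity of all 10 went from between 82044 and 92775 to between 113450 and 117750. Most of it was UCHL1, which was not called, and without UCHL1 it went from between 8292 and 10530 to between 19171 and 23846. Within that remainder the normalized mean of ENO2 went from 12.55 to 13.63 and that of NCAM1 from 7.20 to 12.28. Of 10 fibroblast or endothelial markers, COL1A1 fell and KDR rose, and the summed intensity went from between 31278 and 33464 to between 9707.8 and 10325. COL1A1 made up most of that sum, and without it the sum was between 2943 and 3410 in the control flasks and between 3385 and 3765 with the drug. Of 7 measured blood cell markers, CD14 and HBA1 rose while PTPRC, CD3E and LYZ were dim in both groups, and the summed intensity went from between 3094 and 3262 to between 5887 and 6344. The part of these shifts in the results below was not tested. In whole flasks, a change in the RNA of each cell and a change in which cells are present cannot be told apart.

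Of the 71 member genes, 20 rose, 5 fell and 46 did not pass. Together that is 35.2% called, beside 35.1% of all genes. The members divided differently by direction, with 28.2% higher and 7.04% lower, whereas over all genes 17.6% were higher and 17.5% lower. With arrays scaled to a common median, the counts were 20 higher and 6 lower among the members and 2323 higher and 3264 lower among all 18336 genes. At least 2-fold rises were seen in 15 members (21.1%, beside 8.02% of all genes) and at least 2-fold falls in 2 (2.82%, beside 7.68%). The median change was 0.10 over the members and 0.0075 over all genes. The control and drug arrays did not overlap for 30 members (42.3%, beside 47.0% of all genes). Where a lack of overlap is given for single genes below, it describes their arrays and adds no support. Of the 12 members that were dim in both groups, limma called 0, and 1 (SV2B) had an unadjusted p below 0.05. Of the 59 others, 42.4% were called, beside 41.0% of the genes of the whole array that were not dim in at least 1 group. Of 19 measured genes of a neuronal release core, 9 rose (SYT1, STX1A, SNAP25, VAMP1, SYP, SYN1, CPLX1, BSN and NSF), 0 fell and 10 did not pass. At an unadjusted p below 0.05, limma put 24 members higher and 7 lower, beside 3897 higher and 3945 lower of all 18336 genes. The 6 members that only this looser rule counts were STX5, SV2B, SV2C and VAMP3, which were higher, and STXBP6 and VAMP2, which were lower.

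**Figure D1:**
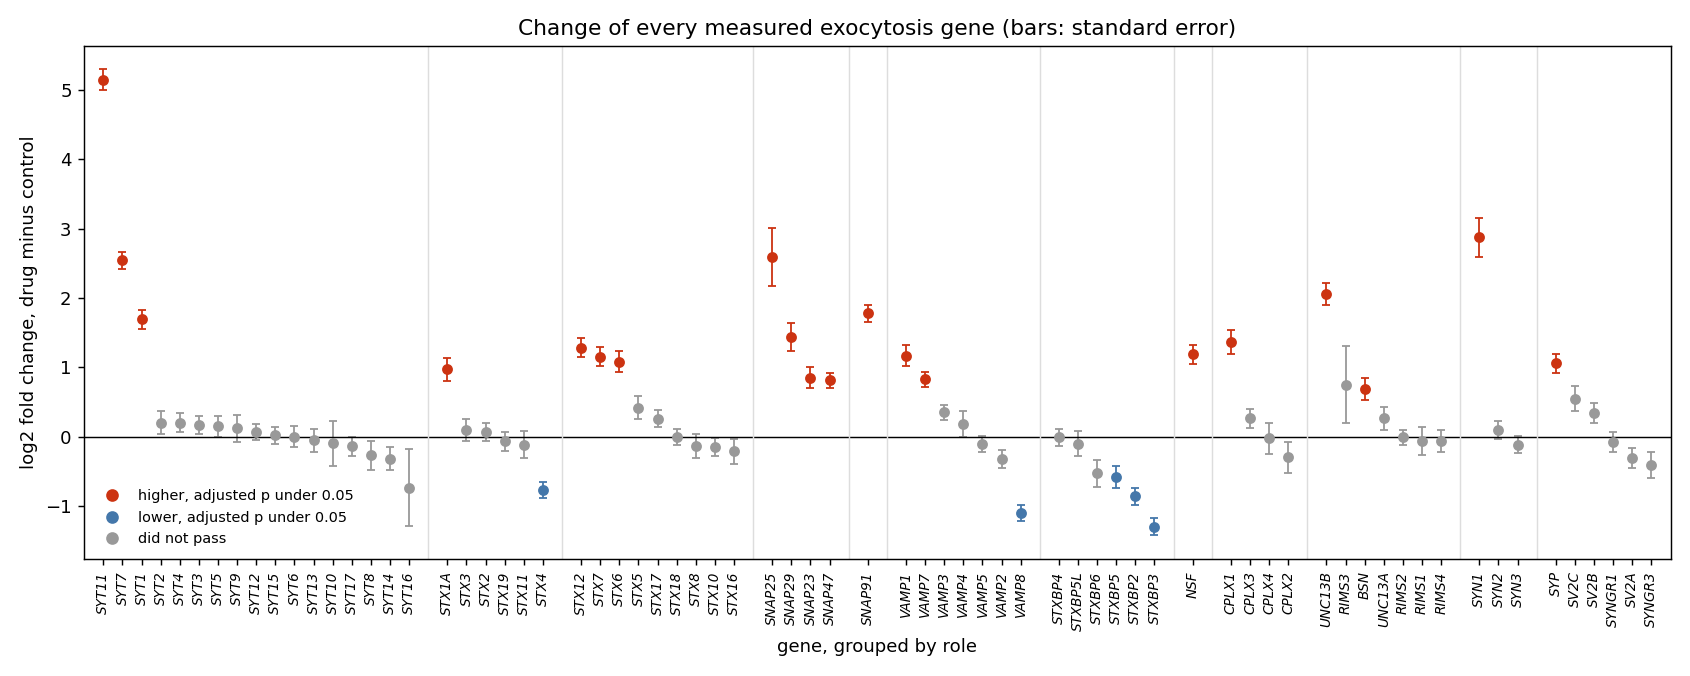
Change of each of the 71 member genes (y axis, log2 fold change, drug minus control, from 3 against 3 arrays) with genes on the x axis grouped by role and separated by vertical lines; points are limma estimates, bars their standard errors, red and blue points passed at an adjusted p under 0.05 and grey points did not. SYT11 stands at 5.14, most synaptotagmins lie near 0, all 4 SNAP-25 relatives lie above 0 and the called syntaxin-binding proteins lie below it.

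The synaptotagmins are vesicle proteins with paired C2 domains, several of which sense calcium. Of 17 measured, 3 rose (SYT11, SYT7 and SYT1) and 0 fell in the limma fit, also at an unadjusted p below 0.05. For these counts and those of the roles and lists below, the shares of all genes were 17.6% higher and 17.5% lower. The small counts were not tested against those shares. SYT11, a synaptotagmin that does not act as a calcium sensor, had deposited intensities of 170, 177 and 212 on control 2, 5 and 6 and of 7385, 7061 and 6394 on drug 1, 3 and 4. Normalized, the control arrays read 7.47, 7.76 and 7.77 and the drug arrays 12.93, 12.88 and 12.62. Every drug array was thus far above every control array, and this was the largest change among the members. From 7.67 ± 0.17 (SD, n = 3) the mean went to 12.81 ± 0.17, a change of 5.14 (SE 0.15) or 35.4-fold, at an adjusted p of 6.72e-06. The 250 bases before the SYT11 start are shown because this gene changed most. They hold a run of 33 bases that occurs again directly after itself (both copies in capitals). A repeat of at least that length, with copies that do not overlap, was found in 0.718% of the 27305 promoters of this length in RefSeq (GRCh38.p14), and in 2 of the 58 members with a promoter sequence.
SYT11, chr1:155859317-155859566, plus strand: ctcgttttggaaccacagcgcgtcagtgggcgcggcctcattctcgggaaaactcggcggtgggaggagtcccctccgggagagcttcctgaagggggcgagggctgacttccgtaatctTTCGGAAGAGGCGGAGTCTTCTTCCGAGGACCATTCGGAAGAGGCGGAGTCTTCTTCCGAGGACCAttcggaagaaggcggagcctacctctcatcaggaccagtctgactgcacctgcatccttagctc

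SYT7, a high-affinity calcium sensor of slow release and of lysosome exocytosis, read 6.08, 6.07 and 6.06 on the control arrays and 8.77, 8.51 and 8.55 on the drug arrays. The control values were dim and nearly equal, and all drug values lay above the lower quartile. The change was 2.54 (SE 0.12), or 5.82-fold, at an adjusted p of 2.13e-05, and it became 3.79-fold with 50 added in place of 1. SYT1, the calcium sensor of fast transmitter release, read 8.44, 8.66 and 8.81 with DMSO and 10.38, 10.38 and 10.23 with the drug. The groups did not overlap, and the change was 1.69 (SE 0.14, adjusted p = 0.000145). The other 14 synaptotagmins lay between -0.73 and 0.21 on their brightest probes. The other probe of SYT15 was called lower, at -0.71 (adjusted p = 0.0152), while its brightest lay at 0.021. Among the 14, SYT4, the closest relative of SYT11, changed by 0.21 (adjusted p = 0.32) and SYT2, a fast sensor like SYT1, by 0.21 (adjusted p = 0.44). Of the 14, 6 were dim in both groups (SYT8, SYT9, SYT10, SYT14, SYT16 and SYT17), and SYT16, at the low end of that span, had a standard error of 0.55.

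All 4 SNAP-25 relatives, which bring a pair of helices to the SNARE bundle, rose. SNAP25 itself, the neuronal form, read 4.53, 5.98 and 6.22 on the control arrays and 8.31, 8.14 and 8.05 on the drug arrays. All 3 control values were dim and spread by more than 1 log2 unit, with control 2 lowest, while the drug values lay close together. Its change was 2.59 (SE 0.41, adjusted p = 0.00263), or 6.02-fold. That fold became 3.37 with 50 added, and without control 2 the change was 1.99 (adjusted p = 0.000346). On the values as deposited and with arrays scaled to a common median it was 3.52 and 3.38. SNAP29, which serves many inner membranes, including autophagosomes, read 10.62, 11.02 and 10.62 with DMSO and 12.38, 12.38 and 11.83 with the drug. The groups stood apart by less than 1 log2 unit at their nearest arrays, control 5 and drug 4. SNAP29 changed by 1.44 (SE 0.20, adjusted p = 0.00138), and by 1.81 on its other probe. SNAP23, the widely expressed plasma membrane form, rose by 0.85 (SE 0.15, adjusted p = 0.00396) and SNAP47 by 0.82 (SE 0.11, adjusted p = 0.00108). SNAP91, which shares the letters but is the clathrin adaptor AP180 of vesicle recycling, read 5.99, 6.25 and 5.98 against 7.92, 7.82 and 7.81. It was dim in the control flasks only, and rose by 1.78 (SE 0.13, adjusted p = 8.35e-05), or 3.43-fold, which became 2.40-fold with 50 added.

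**Figure D2:**
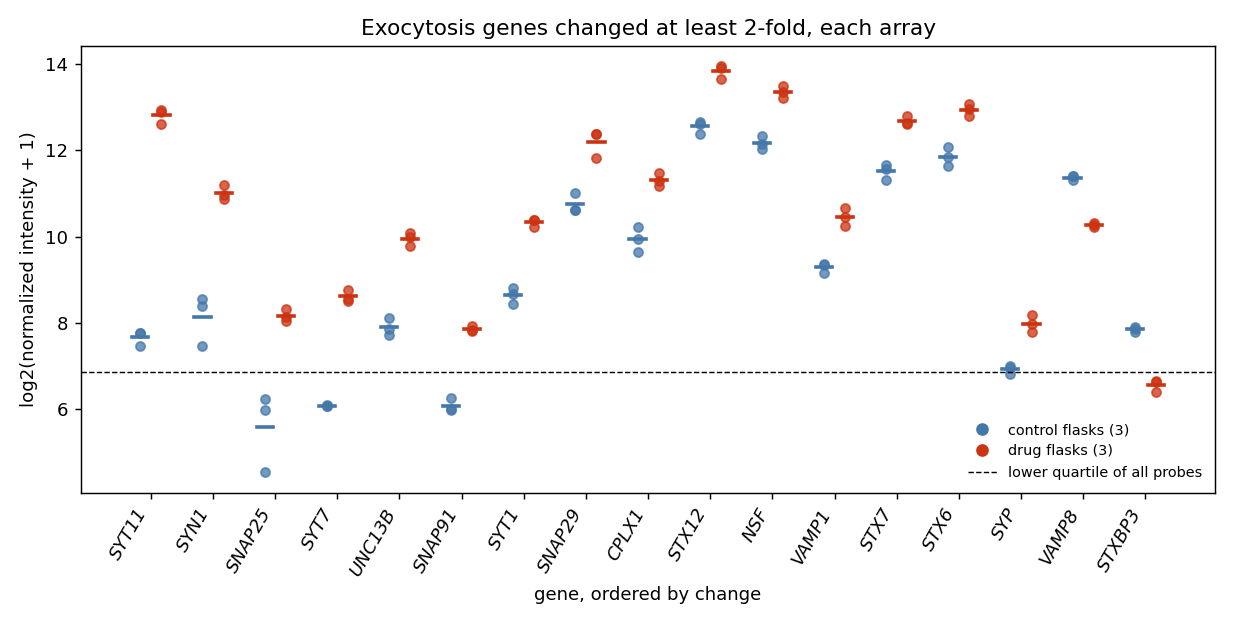
Level of the 17 members that changed at least 2-fold (y axis, log2 of normalized intensity plus 1) on each array, with blue points for the 3 control flasks, red points for the 3 drug flasks, short lines for group means and a dashed line at the lower quartile of all probes, 6.86; genes on the x axis are ordered by change. The 17 genes were chosen for their change on these same arrays, so the lack of overlap between red and blue points in all of them adds no support. SNAP25, SYT7 and SNAP91 lie under the dashed line in the control flasks and STXBP3 in the drug flasks.

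Plasma membrane syntaxins went different ways. STX1A, the syntaxin of neuronal release, rose by 0.97 (SE 0.16, adjusted p = 0.00322) from 10.99 ± 0.13 to 11.96 ± 0.25 (SD, n = 3). STX4, the widely expressed syntaxin of regulated plasma membrane delivery, changed by -0.76 (SE 0.11, adjusted p = 0.00198) from 13.36 ± 0.053 to 12.60 ± 0.092. STX2, STX3, STX11 and STX19 did not pass and lay between -0.11 and 0.10, although 1 of the other 2 probes of STX11 was called lower, at -0.64.

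Of 9 syntaxins of inner membranes, 3 rose and 0 fell in the limma fit. At an unadjusted p below 0.05 these counts were 4, with STX5, and 0. STX12, also called syntaxin 13, of recycling endosomes, read 12.38, 12.62 and 12.66 with DMSO and 13.91, 13.95 and 13.65 with the drug. STX7, of late endosomes, read 11.31, 11.58 and 11.66 against 12.60, 12.79 and 12.63. STX6, of the trans-Golgi network and early endosomes, read 11.63, 11.86 and 12.09 against 13.06, 12.96 and 12.80. In each of these genes the lowest drug array lay above the highest control array. The changes were 1.29 (SE 0.14, adjusted p = 0.000514), 1.16 (SE 0.14, adjusted p = 0.000753) and 1.09 (SE 0.16, adjusted p = 0.0016), and all 3 probes of STX6 and both of STX7 were called higher. STX17, the autophagosome syntaxin, did not pass on any of its 3 probes (0.27 to 0.38), although its groups did not overlap on any of them. The ER and Golgi syntaxins STX18 and STX5 (-0.0038 and 0.42), STX8, STX10 and STX16 did not pass.

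Vesicle SNAREs also differed by member. VAMP1, a synaptobrevin of neurons, read 9.33, 9.15 and 9.37 on the control arrays and 10.45, 10.25 and 10.67 on the drug arrays, a change of 1.17 (SE 0.15, adjusted p = 0.000918) with no overlap. VAMP2, the main synaptobrevin of brain, read 8.99, 9.12 and 9.14 against 8.93, 8.75 and 8.63. All its drug values lay just below its control values, but the change of -0.32 (SE 0.13) did not pass, at an adjusted p of 0.11. VAMP8, or endobrevin, which serves granule secretion in many non-neuronal cells and fusion with lysosomes, read 11.39, 11.41 and 11.30 with DMSO and 10.22, 10.32 and 10.28 with the drug. These groups were tight and separate, and the gene changed by -1.10 (SE 0.11, adjusted p = 0.000346), a 2.14-fold fall. VAMP7, of lysosome exocytosis, rose by 0.83 (SE 0.11, adjusted p = 0.000997). VAMP3, the widely expressed cellubrevin, changed by 0.35 and missed the threshold at an adjusted p of 0.052, and VAMP4 and VAMP5 lay at 0.18 and -0.10 without passing.

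Among the syntaxin-binding proteins 3 of 6 fell and 0 rose in the limma fit. At an unadjusted p below 0.05, 4 were lower, with STXBP6, and 0 higher. STXBP3, or Munc18c, the partner of syntaxin 4, read 7.85, 7.90 and 7.80 with DMSO and 6.39, 6.65 and 6.63 with the drug. It was dim in the drug flasks only, and changed by -1.29 (SE 0.12, adjusted p = 0.000285), or 2.45-fold, which became 1.95-fold with 50 added. STXBP2, or Munc18-2, of secretory granules in blood and epithelial cells, changed by -0.85 (SE 0.12, adjusted p = 0.00178). STXBP5, or tomosyn, which occupies syntaxin and holds release back, changed by -0.58 (SE 0.16, adjusted p = 0.0274) on its brightest probe and by -0.71, -1.07 and -1.10 on the others, all 4 called lower. The call of the brightest probe was lost on the values as deposited (adjusted p = 0.0668) and when control 2, control 5, drug 1, drug 3 or drug 4 was left out (0.0727, 0.0823, 0.0922, 0.0816 and 0.0683). STXBP4, STXBP5L and STXBP6 did not pass, at -0.0033, -0.095 and -0.52.

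NSF, the ATPase that disassembles used SNARE bundles, read 12.02, 12.14 and 12.33 with DMSO and 13.49, 13.35 and 13.21 with the drug. It rose by 1.19 (SE 0.14, adjusted p = 0.000632), and by 1.57 on its other probe, with no overlap on either. CPLX1, a neuronal complexin, read 9.94, 9.65 and 10.23 against 11.18, 11.28 and 11.47. It rose by 1.37 (SE 0.17, adjusted p = 0.000949). CPLX2, its close relative in brain, was dim in both groups and changed by -0.29 (adjusted p = 0.41), CPLX3 by 0.27 (adjusted p = 0.19) and CPLX4 by -0.019 (adjusted p = 0.97).

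Of 7 genes of priming and of the active zone, the release site of the presynaptic membrane, 2 rose. UNC13B, or Munc13-2, which primes vesicles by opening syntaxin, read 7.86, 8.12 and 7.71 on the control arrays and 10.09, 9.99 and 9.78 on the drug arrays. The lowest drug value was well above the highest control value, and the change was 2.06 (SE 0.15, adjusted p = 0.000102), or 4.17-fold. UNC13A, or Munc13-1, its main relative in neurons, changed by 0.27 without passing (adjusted p = 0.29). BSN, or bassoon, an active zone scaffold, rose by 0.69 (SE 0.16, adjusted p = 0.0134). This call was lost without drug 1 (adjusted p = 0.0539), without drug 3 (0.0529) and with arrays scaled to a common median (0.0549). RIMS1 and RIMS2, which tether vesicles and calcium channels, lay at -0.058 and -0.0050. The brightest probes of RIMS3 (0.75, SE 0.56) and RIMS4 (-0.061) did not pass, while their other probes, dim in the control flasks, were called higher, by 1.76 and 0.87.

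SYN1, synapsin I, which ties vesicles to the cytoskeleton of nerve terminals, was the 1 synapsin of 3 that was called. The control arrays read 8.54, 7.46 and 8.39 and the drug arrays 10.96, 10.86 and 11.19. Control 5 was the low array of its group, and the groups stood more than 2 log2 units apart at their nearest. SYN1 rose by 2.87 (SE 0.28, adjusted p = 0.000316), or 7.32-fold. Its other probe, dim in both groups, was also called higher, by 0.97, and as a mean over both probes the change was 1.92 (adjusted p = 0.000178). SYN2 and SYN3 did not pass, at 0.10 and -0.11, and SYN3 was dim in both groups.

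Of 6 vesicle membrane proteins only SYP was called. It read 6.81, 7.01 and 6.94 with DMSO, close to the lower quartile, and 8.18, 7.79 and 7.97 with the drug. The groups did not overlap, and SYP rose by 1.06 (SE 0.14, adjusted p = 0.00122), or 2.08-fold, which became 1.77-fold with 50 added. SV2C, a vesicle glycoprotein, changed by 0.55 and missed the threshold at an adjusted p of 0.057, with no overlap between groups. It passed in 7 of 11 alternative settings (lowest adjusted p = 0.00716, highest 0.186). SV2A and SV2B were dim in both groups and lay at -0.31 and 0.34, and the synaptogyrins SYNGR1 and SYNGR3 lay at -0.071 and -0.40, none of them passing.

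Promoter sequence from RefSeq (GRCh38.p14) was found for 58 of the 71 members, 22 of them called. The called members SNAP25, SYT7 and CPLX1 had none and were not searched. The 250 bases before the first listed start of each gene were searched on both strands for RE1, the site of the neuronal gene repressor REST, as TTCAGCACC, any 2 bases, GGACAG, any base and GCC, for its cores CAGCACC and GGACAG, which lie inside it, and for the cyclic AMP response element TGACGTCA. The full RE1 was found in 1 member, SYN1, and in 2 of all 27305 promoters (0.007%). CAGCACC was in 2 of 17 promoters of genes that rose, in 0 of 5 of genes that fell and in 6 of 36 of those that did not pass, beside 6.07% of all promoters. GGACAG was in 6 of 17, 2 of 5 and 7 of 36, beside 17.1% of all. The cyclic AMP element was in 3 members, SYN1 and STX12, which rose, and STXBP3, which fell, and in 1.77% of all promoters. The 3 promoters with a full motif are shown, with the full RE1 and TGACGTCA in capitals. A match is a description of the letters only.
SYN1, chrX:47619858-47620107, minus strand: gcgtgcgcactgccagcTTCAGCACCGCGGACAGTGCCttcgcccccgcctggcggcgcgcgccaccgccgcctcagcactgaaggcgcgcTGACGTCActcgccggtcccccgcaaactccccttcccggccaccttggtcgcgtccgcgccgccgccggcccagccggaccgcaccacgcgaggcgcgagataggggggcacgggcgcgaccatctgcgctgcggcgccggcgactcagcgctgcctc
STX12, chr1:27772969-27773218, plus strand: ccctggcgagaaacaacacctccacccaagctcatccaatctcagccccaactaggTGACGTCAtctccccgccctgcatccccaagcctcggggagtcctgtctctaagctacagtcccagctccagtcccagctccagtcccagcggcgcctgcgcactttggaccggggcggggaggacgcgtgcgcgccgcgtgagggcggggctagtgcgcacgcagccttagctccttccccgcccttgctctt
STXBP3, chr1:108746424-108746673, plus strand: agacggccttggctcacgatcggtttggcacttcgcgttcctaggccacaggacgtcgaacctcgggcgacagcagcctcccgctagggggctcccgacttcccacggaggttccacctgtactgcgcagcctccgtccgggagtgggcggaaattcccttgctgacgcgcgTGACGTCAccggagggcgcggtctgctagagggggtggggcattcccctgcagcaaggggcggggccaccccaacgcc

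Probes of the same gene mostly gave the same call. Of the 23 members with several probes, 19 had all their probes on one side of the threshold and in one direction where called, and 0 had called probes of opposite sign. The other 4 (RIMS3, RIMS4, SYT15 and STX11) each had 1 called probe that was not the brightest. Of the 19, every probe was called in NSF, SNAP29, STX6, STX7, SYN1 and STXBP5, and in the rest no probe passed. The 48 members with 1 probe, among them SYT11, SYT7, SYT1, SNAP25, UNC13B and SYP, had no second probe to compare. Over all 101 member probes 38 were called (37.6%, beside 31.5% of all probes), 28 higher and 10 lower. The 4 probes of STXBP5 account for 4 of those 10. The 2 probe shares are not of like sets, because all probes include 6024 naming no gene and 977 naming several. Counted by gene, the shares called were 35.2% of the members and 35.1% of all genes.

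**Figure D3:**
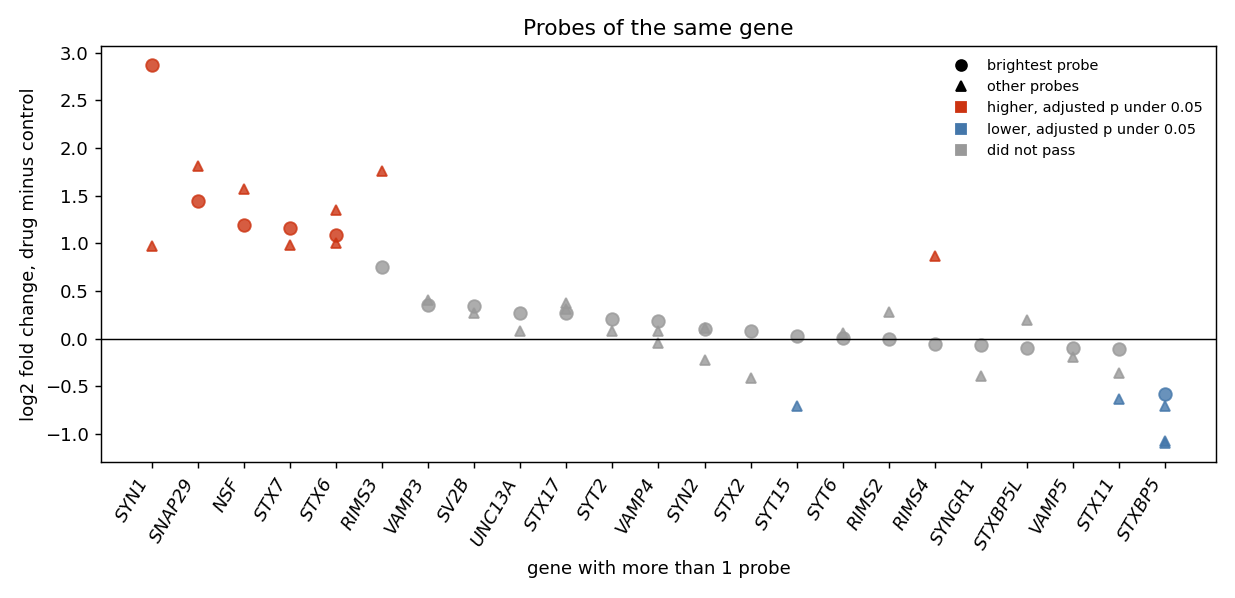
Change (y axis, log2 fold change, drug minus control) of every probe of the 23 members with more than 1 probe (x axis, ordered by the change of the brightest), with circles for the brightest probe and triangles for the others; red and blue probes were called higher and lower at an adjusted p under 0.05 and grey ones did not pass. SYN1 spans 0.97 to 2.87, and no gene has both a red and a blue probe.

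Beyond the members, 107 of 108 listed genes of the vesicle cycle were measured, of which 33 rose (30.8%, beside 17.6% of all genes) and 11 fell (10.3%, beside 17.5%), with a median change of 0.23 (0.0075 over all genes). Of 20 genes of vesicle endocytosis, which retrieves vesicle membrane after fusion, 11 rose and 1, the adaptor subunit AP2B1, fell by 1.26 on the log2 scale (median 0.47). SH3GL3, an endophilin that bends membrane, rose by 3.16 (SE 0.12, adjusted p = 1.35e-05). AMPH, or amphiphysin, rose by 2.51 (SE 0.16, adjusted p = 5.08e-05) and DNM3, a dynamin that cuts vesicles free, by 2.34 (SE 0.15, adjusted p = 5.88e-05). Of 10 genes around the vesicle GTPases RAB3 and RAB27, 4 rose and 3 fell (median 0.12). RAB27A, which docks secretory granules and lysosome-related organelles, changed by -2.53 (SE 0.13, adjusted p = 2.8e-05), while RAB3D rose by 2.05 (SE 0.11, adjusted p = 3.19e-05) and RAB3IP, a RAB exchange factor, by 1.88 (SE 0.13). Averaged over its probes, RAB3D rose by 1.17. RAB3A, the RAB3 form of synapses, was among those that fell, by 1.12 on the log2 scale; it lies outside the rule for named genes and was chosen after its value was seen, as was AP2B1.

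**Figure D4:**
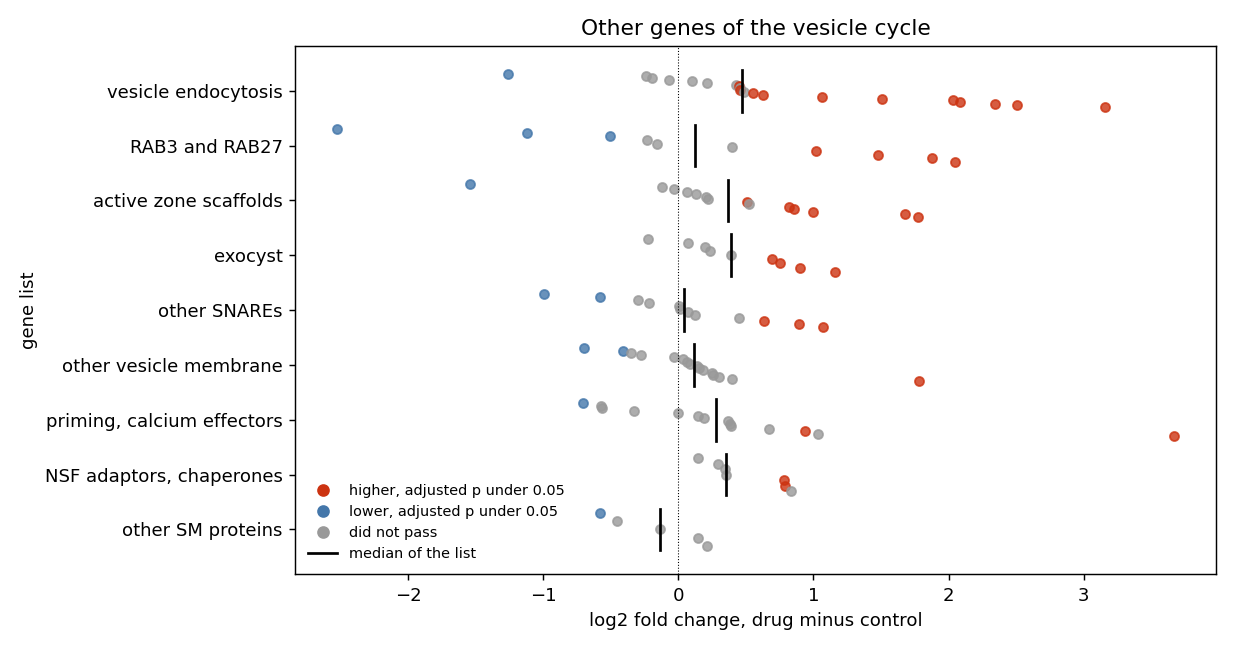
Change (x axis, log2 fold change, drug minus control) of 107 other genes of the vesicle cycle in 9 lists (y axis), 1 point for each gene, red or blue where called higher or lower at an adjusted p under 0.05 and grey where it did not pass; black lines are list medians. Points of the endocytosis list reach 3.16, and SYTL2 stands at 3.67 and RAB27A at -2.53.

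Of 14 genes of priming and calcium-dependent docking, 2 rose and 1 fell (median 0.28). SYTL2, a synaptotagmin-like partner of RAB27, rose by 3.67 (SE 0.20, adjusted p = 2.93e-05), DOC2A, a calcium sensor dim in the control flasks, rose by 0.94 (SE 0.16), and RPH3AL, another RAB effector, changed by -0.70 (adjusted p = 0.0196). The RPH3AL call was lost in 5 settings, with the values as deposited (adjusted p = 0.059), with arrays scaled to a common median (0.0688) and without control 5 (adjusted p = 0.0578), control 6 (0.0587) or drug 4 (0.0568). Of 14 active zone scaffolds, 6 rose and 1 fell (median 0.36). PPFIA1, a liprin, rose by 1.78 (SE 0.35, adjusted p = 0.00728), and ERC2 by 1.68 (SE 0.13, adjusted p = 0.000124), or by 1.02 as a mean over its probes. APBA2, a neuronal adaptor protein, changed by -1.54 (SE 0.18, adjusted p = 0.000718).

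Of 9 exocyst subunits, which tether vesicles at the plasma membrane, 4 rose and 0 fell in limma, or 5 and 0 at an unadjusted p below 0.05 (median 0.39), with EXOC6B at 1.16 (SE 0.14), EXOC8 at 0.90 (SE 0.17) and EXOC6 at 0.75 (SE 0.12). EXOC8 did not pass with arrays scaled to a common median (adjusted p = 0.0545). Of 12 other SNAREs, mostly of the ER and Golgi, 3 rose and 2 fell (median 0.043). YKT6 rose by 1.07 (SE 0.15, adjusted p = 0.0014) and SEC22B by 0.89 (SE 0.20), and GOSR1 changed by -0.99 (SE 0.22). SEC22B did not pass with arrays scaled to a common median (adjusted p = 0.116).

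Of 16 other vesicle membrane proteins and transmitter transporters, 1 rose and 2 fell (median 0.11). SCAMP5, a secretory carrier protein of neurons, rose by 1.78 (SE 0.19, adjusted p = 0.000456), SYPL1, a widely expressed relative of SYP, changed by -0.70 (SE 0.11, adjusted p = 0.00257) and SCAMP4 by -0.41 (adjusted p = 0.0335). Of 7 measured adaptors and chaperones of NSF-driven recycling, 2 rose and 0 fell in limma, or 5 and 0 at an unadjusted p below 0.05 (median 0.35). NAPA, or alpha-SNAP, which recruits NSF, rose by 0.79 (SE 0.14, adjusted p = 0.00464), as NSF did, and DNAJC5, a vesicle chaperone, rose by 0.78 (adjusted p = 0.0433). Of 5 other Sec1/Munc18 proteins, VPS33A, of lysosome fusion, changed by -0.58 (adjusted p = 0.03) and the other 4 did not pass (median -0.14). Leaving out 1 array ended the calls of DNAJC5 (adjusted p = 0.091, 0.0988, 0.126, 0.133 and 0.0618 without control 2, control 5, drug 1, drug 3 and drug 4), of VPS33A (0.0526, 0.0593, 0.0865, 0.105 and 0.083 without control 2, control 5, control 6, drug 1 and drug 4) and of SCAMP4 (0.0588, 0.0878, 0.0645, 0.139 and 0.139 without control 2, control 5, control 6, drug 1 and drug 3). DNAJC5 also did not pass with arrays scaled to a common median (0.111), nor VPS33A on the values as deposited (0.0699).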

How the data were processed

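RNA from 6 flasks was amplified and labelled with Cy5, per the labels' protocols, and hybridised to 1-colour arrays. The authors deposited linear intensities for 31741 probes. How they corrected background and scaled arrays is not given in the sources used. The deposited table held 1431 intensities below 0, and detection calls were not used. Of these, 462 were on control 2, 968 on control 5 and 1 on drug 4, with 0 on control 6, drug 1 and drug 3. The low end of the scale thus differed between arrays, unevenly by group. Its part in the changes of genes dim in the control flasks was not tested. Groups came from the sample titles. Medians of the arrays spanned 0.338 in log2 units, so intensities were quantile normalized, floored at 0, increased by 1 and log2 transformed. Testing used limma 3.58.1 under R 4.3.3 (lmFit and eBayes, two-sided, no covariate). P-values were adjusted by the Benjamini-Hochberg method over all probes. The fit was tested on simulated data with independent noise for each value and changes added only to probes above the lower quartile. That test does not cover dim probes or differences between arrays. Flasks are described as separate, and the number of arrays limits the precision. Probes took gene names from the platform annotation, updated through RefSeq synonyms (24740 probes with 1 gene, 977 with several, 6024 with none), and those naming several genes were left out, 2 of which name a gene under the members' rule. The members and lists were chosen with earlier results of these data known. Members called at least 2-fold apart are given on every array, other called members by their change, uncalled members by value if in the neuronal release core, and from each pathway list up to 3 called genes. Alternatives were the values as deposited, median scaling, 50 added, the brighter probes, an intensity trend, the mean over probes, and leaving out each array. Some items are not reported here.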

Additional observations from a re-analysis of the deposited data

How the results depend on the processing

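Over 12 alternatives (11 for genes with no probe among the brighter ones), 23 of the 25 called members kept their direction and their call, and 0 reversed. The exceptions were BSN (adjusted p from 0.00343 to 0.0549) and STXBP5 (0.000663 to 0.0922). Of the 24 other vesicle genes named by the rule, 18 kept their call in every alternative. The number of called members ran from 23 to 26 when single arrays were left out, with 19 to 21 higher and 4 to 6 lower, and from 21 (of 40 members with a bright probe) to 29 (mean over probes) in the other settings. Called member probes ran from 36 to 40 and called genes of the vesicle lists from 34 to 43 when single arrays were left out. All genes called ran from 4973 to 6085. On the values as deposited the median change of all genes was 0.205, and the members' median of 0.321 lay 0.117 above it. No paired analysis was possible because the control and drug flasks share no replicate number. Dim probes limit SNAP25, SYT7, SNAP91 and STXBP3, whose folds depend on the constant added. Folds of genes that were not dim also moved with 50 added. That of SYP went from 2.08 to 1.77, below the 2-fold limit, and that of SYT11 from 35.4 to 28.7.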
